A study of Mus musculus with 8 samples.

Results

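The miR-23/27/24 family comprises the mouse miRNAs of 2 hairpin clusters: mmu-miR-23a, mmu-miR-27a and mmu-miR-24-2* from the a cluster, mmu-miR-23b, mmu-miR-27b and mmu-miR-24-1* from the b cluster, and mmu-miR-24, whose mature strand both clusters give (mmu-, for mouse, is left out from here on). These 7 miRNAs were taken by name from the probes of a miRNA array and were 7 of its 566 mouse miRNAs. All 7 had 2 probes each, and 12 of the 14 probes passed the filter on dim signals, so that all 7 miRNAs were among the 189 tested. The arrays measured brown adipose tissue, the fat that makes heat, of 8-week-old male C57Bl6N mice. The cold group was 3 mice held at 8 °C for 24 h (mice 1 to 3), and the control group was 3 mice left at room temperature, 21 °C (mice 4 to 6). The labels name no other treatment, and whole tissue was used, so fewer cells of a type and less of a miRNA per cell cannot be told apart.

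A miRNA hairpin is cut into a short duplex, of which the guide strand is loaded onto an Argonaute protein and the passenger strand, marked with a star in the array's names, is usually degraded. The guide strand pairs with messenger RNAs through its seed, so that miRNAs with one seed share most targets. In fat cells miR-27a and miR-27b are known to repress Pparg and Prdm16, which drive brown fat cell formation, miR-23 and miR-24 are known from other tissues as regulators of metabolism and cell division, and both clusters are known to be enriched in endothelium.

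The sequences show which strands differ, and are given from 5′ to 3′ with the seed, bases 2 to 8, in capitals. They are RefSeq's, on build GRCm38.p6, for 6 of the 7 miRNAs; miR-23b is named only. The a cluster comes first.
miR-23a: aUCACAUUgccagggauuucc
miR-27a: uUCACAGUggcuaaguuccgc
miR-24: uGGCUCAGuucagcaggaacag
miR-24-2*: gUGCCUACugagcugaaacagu
miR-27b: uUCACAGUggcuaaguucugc
miR-24-1*: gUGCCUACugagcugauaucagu
miR-27a and miR-27b shared a seed and differed by the single base C19U, counted from the 5′ end with the base of miR-27a first. The seeds of miR-23a and miR-27a differed at 1 of 7 bases. Both loci give the same miR-24 sequence, so its probes read both clusters together. The passenger strands miR-24-1* and miR-24-2* shared their first 16 bases and differed after them, and they are the products that tell the loci apart. Whether probes for such similar strands bound only their own strand was not tested.

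The a cluster lies on the plus strand of chromosome 8 with the hairpins Mir23a (chr8:84208518-84208592), Mir27a (chr8:84208672-84208758) and Mir24-2 (chr8:84208815-84208921), a span of 404 bases. No gene in RefSeq's table spans it. The b cluster lies on the plus strand of chromosome 13 with the hairpins Mir23b (chr13:63300484-63300557), Mir27b (chr13:63300712-63300784) and Mir24-1 (chr13:63301208-63301275), a span of 792 bases, inside the bounds of the aminopeptidase gene Aopep.

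Signal on these arrays depended on where a spot lay, in opposite ways in the 2 groups, and this bears on every value below. Each probe was printed in several spots spread over 192 rows. In rows 1 to 24, bright probes (median of at least 100 units) lay between -2.98 and -2.71 log2 units from their own median on the 4 cold arrays, and between -0.07 and 0.03 on the 4 room temperature arrays. In rows 169 to 192 the room temperature arrays lay between -2.68 and -2.08, and the cold arrays between -0.17 and 0.17. The slide held the cold arrays in one of its rows and the control arrays in its other, so slide row and group cannot be told apart. The difference of each of the 7 miRNAs between the groups is therefore given from all spots and, as alternatives chosen after seeing the data, with a smooth correction for array row and column, from the 96 middle rows (row 49 on) alone, and with both. The correction was fitted on these same bright probes, of which no band of rows then lay more than 0.129 log2 units from the probe medians. How well it holds for dim strands was not tested. Over all miRNAs tested, the median difference was -0.02 from all spots and 0.02 after the correction. It was 0.19 in the middle rows and 0.09 with both, so the 4 treatments do not share one zero. The cold arrays were also dimmer before scaling, with 75th percentiles of 574 to 918 units against 863 to 1408 at room temperature. On the cold arrays 303 to 335 probes were well above background, and on the room temperature arrays 352 to 423. Signals in units and the background flags given below are not scaled, so they carry this difference.

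**Figure D1:**
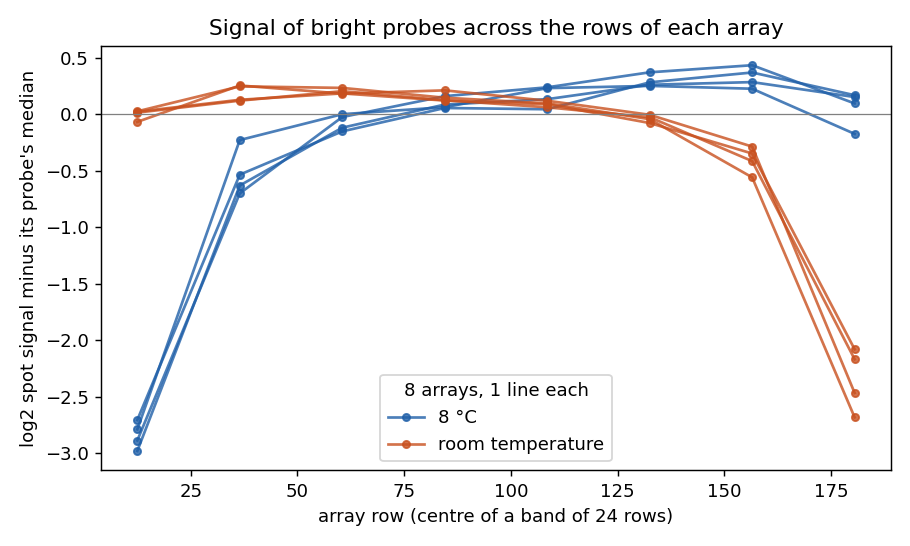
Median log2 signal of bright probes relative to each probe's own median, by array row in bands of 24 rows, with 1 line for each of the 8 arrays. The 4 cold arrays drop to between -2.98 and -2.71 at the low rows, and the 4 room temperature arrays to between -2.68 and -2.08 at the high rows.

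The passenger strand of the a cluster, miR-24-2*, was dim in every mouse, and dimmer in the cold than at room temperature. On its kept probe, A_54_P3455, the processed signal was 3.56, 6.77 and 11.2 units in cold mice 1, 2 and 3 and 25.1, 30.3 and 49.4 units in room temperature mice 4, 5 and 6. The groups did not overlap, with means of 7.16 ± 3.81 and 34.9 ± 12.8 units (SD, n = 3). The probe was well above background on none of the 4 cold arrays and on all 4 room temperature arrays. The cold level therefore has only an approximate bound. The probe passed the filter through the room temperature group alone, which favours a lower value in the cold. So did the kept probe of miR-24-1*. With probes required well above background on all 8 arrays neither passenger strand was tested, so the p-values of both are given as a description and support nothing further.

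Levels were scaled to the 75th percentile of each array, floored at 0.01 and put on a log2 scale. Cold mice 1 and 2 were then at the floor for miR-24-2*, at -6.64, and mouse 3 was at -6.36. Mice 4 to 6 were at -5.29, -4.83 and -4.83. By an approximate bound, the signal of probe A_54_P3455 was 2.36-fold lower in the cold, and 2.05-fold lower after the position correction. In the middle rows the bound was 1.99-fold, and in the corrected middle rows 1.94-fold. The bound sets each cold array at its dimmest probe that was well above background, or at this probe's own signal where that was higher. The dimmest such probe is no detection limit, so the true fold can be smaller. In the middle rows the bound even exceeded the measured fold of 1.98, for which cold levels were floored. The measured difference was -1.56 ± 0.17 (SE), with an adjusted p of 0.0021 in limma over 189 miRNAs. Its size rests on the floor, and with a floor of 0.03 it was -0.15 (limma adjusted p = 0.300), with all cold mice and mouse 4 at that floor.

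With the correction, cold mice 1 to 3 lay at -6.62, -6.40 and -6.14 for miR-24-2*, and mice 4 to 6 at -5.51, -5.12 and -5.14. The groups again did not overlap, and the difference was -1.12 ± 0.17 (SE; limma adjusted p = 0.0163). It kept its direction in the middle rows alone, at -0.98 ± 0.31 (SE), and in the corrected middle rows, at -1.04 ± 0.28, but limma's adjusted p was 0.0723 and 0.0675. In the middle rows the probe gave 7.70, 7.66 and 19.2 units in cold mice 1 to 3 and 28.0, 36.3 and 41.6 units in mice 4 to 6, still without overlap. Leaving out any 1 mouse kept the call from all spots. After the correction the call was lost without mouse 2, without mouse 5 or without mouse 6, with differences of -1.12, -1.06 and -1.07. The filter was not run again without a mouse, so these calls too are only a description.

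Of the 10 spots of this probe, 4 lay in rows 1 to 24, the band that was dim on the cold arrays. The other probe of miR-24-2*, A_54_P3454, had 1 of 10 spots there and 6 in the middle rows. It was well above background on 1 cold and 3 room temperature arrays and did not pass the filter. Its signal was 4.38, 9.94 and 17.98 units in cold mice 1 to 3 and 15.5, 19.99 and 33.3 units in mice 4 to 6, so the groups overlapped by mouse 3. On the log2 scale that probe differed by -0.62 between the groups, and by -0.37 after the correction (2-sided exact permutation test, p = 0.2 for both, n = 3 against 3, where the smallest possible p is 0.1). In the middle rows A_54_P3454 differed by -0.22 (exact permutation p = 0.6), and in the corrected middle rows by -0.20 (exact permutation p = 0.7). Both probes were thus lower in the cold on average, but the difference of the second was smaller and lay within the spread between mice.

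**Figure D2:**
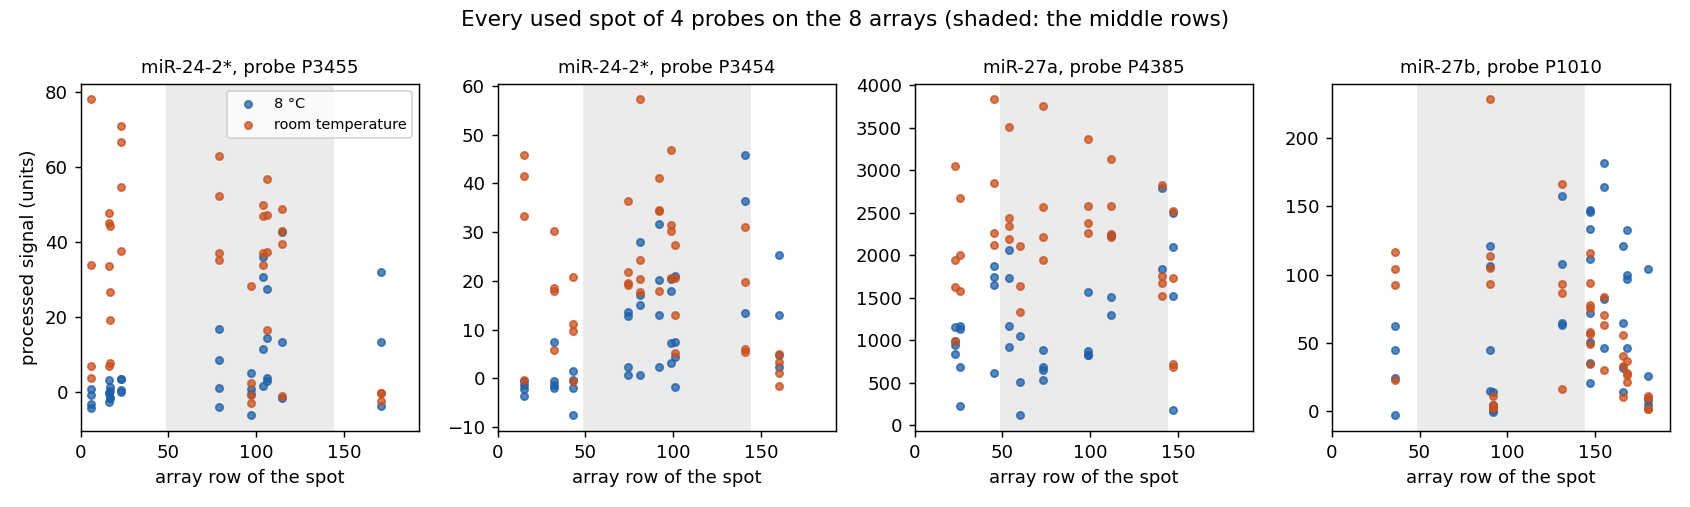
Processed signal in units of every used spot of 4 probes by array row, with cold arrays in blue and room temperature arrays in orange, and the 96 middle rows shaded. For probe A_54_P3455 of miR-24-2* the cold spots at the low rows lie near 0, and the group means over all rows are 7.16 and 34.9 units.

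The passenger strand of the b cluster, miR-24-1*, passed the test from all spots only, of the 4 treatments of position. Its kept probe, A_54_P4207, gave 13.9, 18.1 and 15.4 units in cold mice 1 to 3 and 31.3, 27.7 and 42.5 units in mice 4 to 6. The groups did not overlap, and the probe was well above background on 3 of 4 cold and all 4 room temperature arrays. The scaled level was -5.49, -5.53 and -5.89 in the cold against -4.98, -4.96 and -5.05 at room temperature, a difference of -0.64 ± 0.15 (SE; limma adjusted p = 0.0222).

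After the position correction the difference of miR-24-1* was -0.30 ± 0.15 (limma adjusted p = 0.242), in the middle rows -0.30 ± 0.15 (limma adjusted p = 0.214), and in the corrected middle rows -0.13 ± 0.12 (limma adjusted p = 0.579). The groups still did not overlap under these, as for 31.2%, 35% and 31.1% of all miRNAs. In the corrected data the cold mice lay at -5.43, -5.45 and -5.88 and the room temperature mice at -5.25, -5.29 and -5.31, so mouse 3 lay farthest from the other group. From all spots the call was lost on leaving out any mouse but mouse 1, with differences between -0.70 and -0.51. The probe left out, A_54_P3340, lay at the floor on all 8 arrays and gives no second reading of the strand.

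These were 2 of the 7 miRNAs past the threshold from all spots, both lower in the cold. Over all miRNAs tested, 15.3% passed in either direction and 6.88% were lower. After the correction 1 of the 7, miR-24-2*, passed, where 11.6% of all miRNAs passed and 4.76% were lower. In the middle rows alone 4.52% of the 177 miRNAs tested there passed, and in the corrected middle rows 3.39% of 177, with none of the 7 among them. Groups of mice that do not overlap were common: from all spots 38.6% of all miRNAs had them, against 3 of the 7 here (miR-27a, miR-24-1* and miR-24-2*), and after the correction 31.2%, against 2 of the 7 (miR-24-1* and miR-24-2*).

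**Figure D3:**
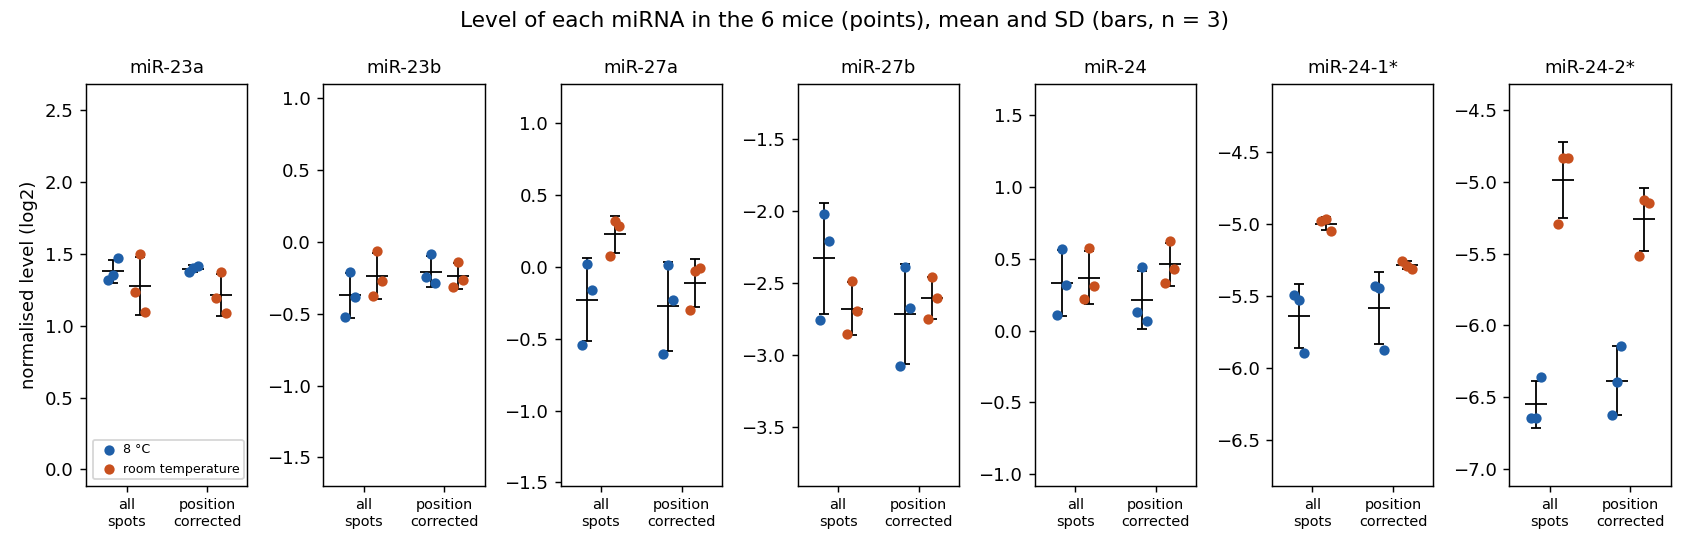
Scaled log2 level of the 7 miRNAs in each of the 6 mice, from all spots and after the position correction, with points for mice and bars for the mean and SD (n = 3 per group). Every panel spans the same range of levels, and miR-24-2* is the miRNA with the widest gap between the groups in both settings.

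Of the guide strands, miR-27a was lower in every cold mouse from all spots without passing the test. This is the miR-27 of the a cluster, with the seed UCACAGU. Its scaled level was -0.55, 0.02 and -0.16 in cold mice 1 to 3 and 0.08, 0.32 and 0.28 in mice 4 to 6. The groups did not overlap, and the difference was -0.46 ± 0.17 (SE; limma adjusted p = 0.116). Both probes pointed the same way, at -0.50 ± 0.26 and -0.41 ± 0.14. On the brighter of them, A_54_P4385, the processed signal was 1012, 1446 and 1377 units in cold mice 1 to 3 and 1951, 1931 and 3076 units in mice 4 to 6.

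After the position correction miR-27a lay at -0.61, 0.01 and -0.23 in the cold and at -0.30, -0.03 and -0.01 at room temperature. The groups overlapped, and the difference was -0.16 ± 0.18 (limma adjusted p = 0.668). The probe A_54_P4385, whose spots had a median row of 66.5, moved from -0.41 to -0.01 with the correction. In the middle rows without the correction the difference was -0.56 ± 0.17 (limma adjusted p = 0.0720), and with it -0.33 ± 0.20 (limma adjusted p = 0.362). The size of the miR-27a difference therefore ranged from -0.16 to -0.56 over the 4 treatments of position, and it passed the test under none of them.

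Its partner miR-27b, which shares the seed, differed with opposite signs from all spots and after the correction, and passed the test neither time. From all spots it lay at -2.76, -2.02 and -2.21 in cold mice 1 to 3 and at -2.85, -2.49 and -2.70 in mice 4 to 6, a difference of 0.35 ± 0.21 (limma adjusted p = 0.298). Corrected, the difference was -0.11 ± 0.19 (limma adjusted p = 0.747), and the groups overlapped under both. It was 0.22 ± 0.27 in the middle rows (limma adjusted p = 0.612) and 0.06 ± 0.27 in the corrected middle rows (limma adjusted p = 0.906). Medians over all miRNAs in these 2 settings were 0.19 and 0.09.

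The 2 probes of miR-27b did not give one answer. The brighter, A_54_P1009, with a median row of 109.5, differed by -0.02 ± 0.26. The dimmer, A_54_P1010, with a median row of 147, differed by 0.72 ± 0.20 and passed the test over 329 probes (limma adjusted p = 0.0363), where 24.3% of all probes passed. Its spots from row 145 on gave 62.1, 120.5 and 78.3 units in cold mice 1 to 3 and 33.9, 47.4 and 65.9 units in mice 4 to 6. In the middle rows the order was mixed, with 31.2, 73.0 and 97.4 units in the cold and 66.9, 40.98 and 132 units at room temperature. After the correction that probe's difference was 0.04 ± 0.18 (limma adjusted p = 0.929), and 8.81% of all probes passed.

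Among all kept probes, the difference between the groups also went with where the spots lay. Of the 329 kept probes, the 53 with at least 2 more spots in rows 1 to 24 than in rows 169 to 192 had a median difference of -0.26, with 11 lower and 2 higher. The 50 with at least 2 more spots in rows 169 to 192 had a median of 0.24, with 12 higher and 1 lower. After the correction these medians were 0.09 and -0.03. The kept probe of miR-24-2*, A_54_P3455, was among the 53, and both probes of miR-24 were among the 50. The probes of miR-27b were in neither class.

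The miR-23 guides passed the test under none of the 4 treatments of position. For miR-23a, with the seed UCACAUU, the level was 1.32, 1.35 and 1.47 in cold mice 1 to 3 and 1.23, 1.501 and 1.10 in mice 4 to 6. The groups overlapped, with a difference of 0.10 ± 0.14 (limma adjusted p = 0.673) and of 0.18 ± 0.12 after the correction. It was 0.14 ± 0.17 in the middle rows and 0.17 ± 0.15 in the corrected middle rows. For miR-23b the level was -0.52, -0.21 and -0.38 in the cold and -0.38, -0.07 and -0.27 at room temperature. That was a difference of -0.13 ± 0.15 (limma adjusted p = 0.533) from all spots and of 0.03 ± 0.12 after the correction. The middle rows gave 0.04 ± 0.17 and the corrected middle rows 0.12 ± 0.13. Over all miRNAs the medians in these 2 settings were 0.19 and 0.09.

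miR-24, the strand that both loci give, lay at 0.11, 0.57 and 0.32 in cold mice 1 to 3 and at 0.22, 0.58 and 0.31 in mice 4 to 6. The ranges almost coincided, and the difference was -0.04 ± 0.17 (limma adjusted p = 0.881). Of its 20 spots, 6 lay in rows 169 to 192 and 2 in rows 1 to 24. Its probe A_54_P1143 shows how far position reached: up to row 48 it gave 90.6, 230 and 262 units in cold mice 1 to 3 and 1074, 1299 and 1956 units in mice 4 to 6, whereas from row 145 on it gave 650, 1083 and 1107 units in the cold and 136, 233 and 314 units at room temperature. The order of the groups was thus opposite at the 2 ends of the array, without overlap at either. The correction moved the difference to -0.25 ± 0.15 (limma adjusted p = 0.334). In the middle rows alone it was -0.42 ± 0.16 (limma adjusted p = 0.131), beside a median of 0.19 over all miRNAs. The groups did not overlap there, as for 35% of all miRNAs.

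**Figure D4:**
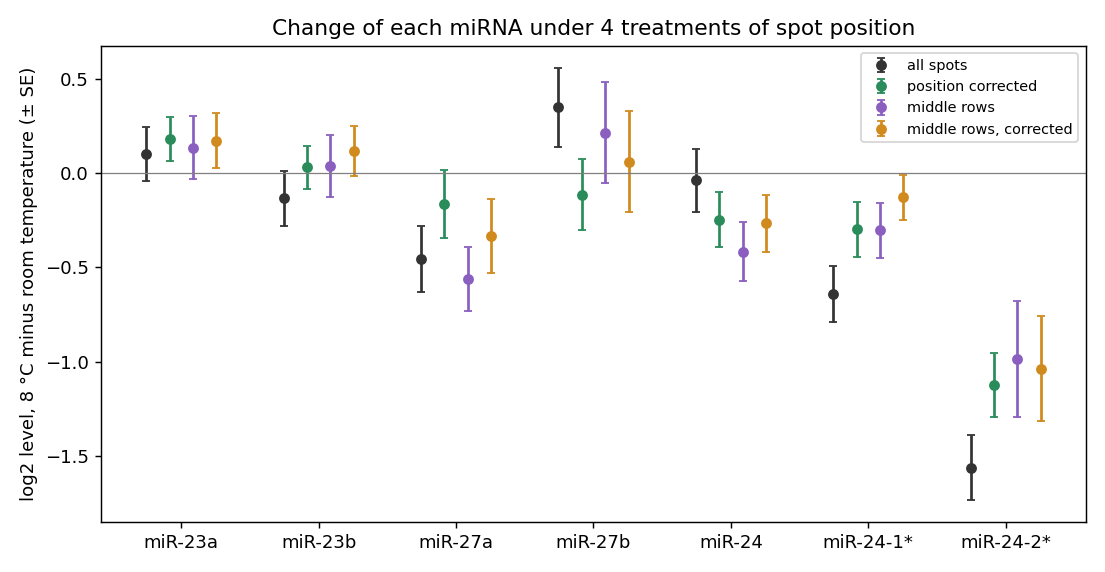
Difference in log2 level, 8 °C minus room temperature, of the 7 miRNAs with the SE from limma, under 4 treatments of spot position. The difference of miR-24-2* lies between -1.56 and -0.98 over these 4, while that of miR-27b moves from 0.35 to -0.11.

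The a and b clusters were compared within each mouse, by subtracting the b level from the a level of partner miRNAs. The size of such a difference carries the brightness of the probes, so only its shift between groups was read. For miR-27a minus miR-27b it was 2.21, 2.04 and 2.05 in cold mice 1 to 3 and 2.93, 2.81 and 2.98 in mice 4 to 6, a shift of -0.81 without overlap (2-sided exact permutation test, p = 0.1; 0.125 adjusted over the 5 pairs compared). After the position correction it was 2.48, 2.40 and 2.45 in the cold and 2.45, 2.43 and 2.60 at room temperature, a shift of -0.05 (exact permutation p = 0.6). The correction thus left all 6 mice between 2.40 and 2.60, with the groups interleaved.

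The middle rows gave other values for that pair, namely a shift of -0.78 without overlap (exact permutation p = 0.1) and, with the correction, of -0.39 with overlap (exact permutation p = 0.2). For miR-23a minus miR-23b the shift was 0.23 from all spots (exact permutation p = 0.3), and 0.15 after the correction (exact permutation p = 0.3). The mice of the groups overlapped in both.

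The passenger strands differ between the miR-24 loci. The level of miR-24-2* minus that of miR-24-1* was -1.15, -1.12 and -0.47 in cold mice 1 to 3 and -0.32, 0.13 and 0.22 in mice 4 to 6. This shift of -0.92 (exact permutation p = 0.1, the smallest possible) became -0.83 after the correction, -0.68 in the middle rows with overlap, and -0.91 in the corrected middle rows. From all spots the groups also overlapped with quantile normalisation (-0.77), with both probes of each miRNA (-0.77) and with the software's total signals (-0.77). With mice 1 and 2 at the floor for miR-24-2*, its size rests on that floor, and it was -0.088 with a floor of 0.03. These data therefore do not settle whether the shifts of the strands differed.

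Against the shared guide miR-24, the passenger strand miR-24-1* shifted by -0.60 from all spots and by -0.05 after the correction (exact permutation p = 0.1 and 0.8), and by 0.11 and 0.14 in the middle rows without and with it (exact permutation p = 0.5 for both). The passenger strand miR-24-2* shifted against miR-24 by -1.53 from all spots and by -0.88 after the correction (exact permutation p = 0.1 for both, n = 3 against 3), without overlap in either. In the middle rows it shifted by -0.57 with overlap (exact permutation p = 0.3), and in the corrected middle rows by -0.77 without overlap (exact permutation p = 0.1). From all spots with a floor of 0.03 it shifted by -0.11. Both passenger strands passed the filter through the room temperature group alone, so these p-values too are only a description.

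**Figure D5:**
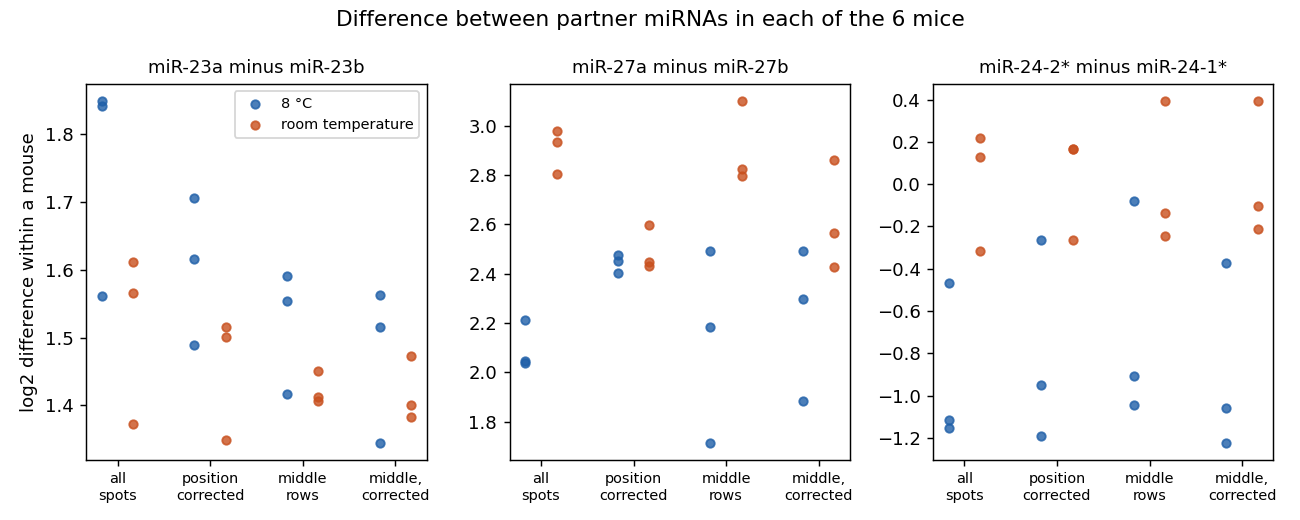
Difference in log2 level between partner miRNAs within each of the 6 mice (points), for the pairs miR-23a and miR-23b, miR-27a and miR-27b, and miR-24-2* and miR-24-1*, under 4 treatments of spot position. The gap of -0.81 between the groups for miR-27a minus miR-27b closes to -0.05 with the correction, and that for miR-24-2* minus miR-24-1* lies between -0.92 and -0.68, with overlap of the groups in the middle rows.

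The technical arrays of mice 1 and 4 gave a measure of the spread between arrays of one mouse, from all spots without the position correction. This spread holds differences along the array columns, which the middle rows alone leave in place. On the 2 arrays of mouse 1 the fitted column field was -3.31 and 0.10 log2 units in column 1, and -0.77 and -4.38 in column 82. On those of mouse 4 it was -2.02 and 0.28, and -1.51 and -4.18. Its part in the gaps below was not tested. For miR-27a the 2 arrays of mouse 1 lay at -0.86 and -0.23, and those of mouse 4 at 0.02 and 0.14. For miR-24 the arrays of mouse 1 lay at -0.36 and 0.59, and those of mouse 4 at 0.27 and 0.17. In mouse 1 these gaps were wider than the difference between the groups, and in mouse 4 that held for miR-24 only. The arrays of mouse 1 lay closer for miR-23a, at 1.32 and 1.31, for miR-27b, at -2.74 and -2.78, and for miR-24-1*, at -5.32 and -5.66. For miR-23b they lay at -0.28 and -0.77.

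The passenger arms of miR-27 were at background. miR-27a* was well above background in 1 of 158 used spots and miR-27b* in 0 of 160. The array's names held no probe that matched miR-23a* or miR-23b*.

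Among the 24 tested passenger strands of 115 on the array, 5 were lower and 6 higher in the cold from all spots, with a median difference of 0.03, beside -0.02 over all 189 miRNAs. Of all 189, 15.3% passed in either direction and 6.88% were lower. The 5 lower ones were miR-24-2*, miR-24-1*, miR-133a* (-1.89), miR-29b* (-1.26) and miR-199b* (-0.50). After the correction 2 were lower, miR-24-2* and miR-199b* (-0.66), and 4 were higher, where 11.6% of all miRNAs passed and 4.76% were lower. Of the 20 tested in the middle rows 3 were higher and none lower, where 4.52% of all miRNAs passed. In the corrected middle rows 2 were higher and none lower, where 3.39% of all passed.

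A list of 11 other miRNAs that are known, like miR-27, to hold back brown or beige fat was tested beside the family. From all spots 4 were lower (miR-133a, miR-133b, miR-199a-3p and miR-214), 1 was higher (miR-93), where 15.3% of all miRNAs passed, and the median was -0.21. After the correction the same 4 were lower and none was higher, where 11.6% passed, with a median of 0.00 beside 0.02 over all miRNAs. In the middle rows, with and without the correction, none of the 11 passed the test in either direction. Of them, miR-133a and miR-133b are also markers of striated muscle and miR-199a-3p and miR-214 of stroma.

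Markers of every listed cell type were measured, so measurement alone does not identify the tissue. The 4 listed for brown fat, miR-193b, miR-365, miR-378 and miR-455, were all measured. Their summed scaled level was 8.56 to 11.8 in the cold and 6.88 to 8.34 at room temperature, and 2 of the 4 were higher. After the correction the ranges overlapped, at 9.39 to 11.6 and 7.89 to 9.51, and none passed the test. Beside these counts and those below, 15.3% of all miRNAs passed from all spots and 11.6% after the correction. The 4 measured markers of striated muscle summed to 1.49 to 6.44 in the cold and 7.53 to 11.1 at room temperature. After the correction they summed to 1.39 to 6.31 and 7.23 to 11.1, and 3 of them were lower from all spots (2 after the correction). The 3 measured markers of endothelium summed to 9.03 to 12.1 and 11.2 to 12.9. After the correction they summed to 11.3 to 14.0 and 11.1 to 12.3, and none passed the test in either setting. All these sums are of unlogged levels, so the brightest marker of a list weighs most. Here that was miR-126-3p, which differed by 0.16 after the correction, whereas miR-126-5p and miR-221 differed by -0.47 and -0.15. The 3 measured markers of stroma summed to 0.624 to 0.812 in the cold and 1.12 to 1.21 at room temperature, and to 0.681 to 0.855 and 0.950 to 1.00 after the correction, with 2 lower in both. The 2 measured markers of erythroid cells summed to 17.3 to 27.8 in the cold and 12.2 to 15.1 at room temperature. After the correction they summed to 15.6 to 24.1 and 11.5 to 14.1, without passing the test in either setting. The 4 of leukocytes summed to 0.516 to 0.938 and 0.942 to 1.01. After the correction their ranges overlapped, at 0.528 to 0.933 and 0.876 to 0.895, and none passed the test in either setting. The liver marker miR-122 was at the floor in every cold mouse. The part of these cell types in the values of the miR-23/27/24 family was not tested.

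By closeness of their centred levels over the 6 mice, the nearest of 153 other miRNAs to miR-23a was miR-676, with a root mean square distance of 0.046 log2 units. The nearest to miR-23b and miR-24 was miR-26b (0.057 and 0.082), to miR-27a miR-99a (0.111) and to miR-27b miR-16 (0.106). After the correction miR-16 was nearest to both miR-27a (0.061) and miR-27b (0.071), miR-26b to miR-23a (0.063), miR-301a to miR-23b (0.050) and miR-223 to miR-24 (0.064).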

How the data were processed

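The deposited files are the authors' scanner output, 1 array each, with spot intensity in units after the software's background subtraction, per the file headers (the software's version is 10.7.3.1 there and 9.5.3.1 in the submitters' processing notes on Agilent Feature Extraction). The deposited flags for outlier spots and for signal well above background were used as given. The deposited series table held the same intensity values (largest difference 0). Outlier spots, 2.09% to 2.63% per array, were left out, and spots of a probe were averaged. Signals were scaled by the array's 75th percentile, taken over the 267 of 1712 probes with more than 0.5 of their spots well above background on all 8 arrays, floored at 0.01 and put on the log2 scale. Probes well above background on every array of a group were kept (329). A miRNA was the mean of its kept probes, and the 2 arrays of mice 1 and 4 were averaged. Groups were compared with limma 3.58.1 in R 4.3.3 over 189 miRNAs (Benjamini-Hochberg, threshold 0.05), and within-mouse differences with exact permutation tests, 2-sided.

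The position correction divided a probe's mean by the mean, over its spots, of a loess field of row and column (span 0.2) fitted on each array to probes of at least 100 units, without use of the groups. It, the middle rows (at least 3 spots per probe) and normexp on the median signal were chosen after seeing the data. The method was tested on simulated data, with a gradient taken from the fitted field. Changes were planted only in miRNAs brighter than the passenger strands, so that test does not cover strands this dim. All 7 miRNAs, their other arms, the nearest miRNAs and the list members past the threshold were named. The members and lists were chosen with earlier results of these data known. The labels tell mice apart, and the number of arrays limits the precision. Other alternatives were scaling, summary, filter, floor, array, spot median, block, prior and leaving out each mouse.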

Additional observations from a re-analysis of the deposited data

How the results depend on the processing

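With a block meant for the slide column limma called 31 miRNAs and changed no call of the 7. Mice with technical arrays entered as averages over arrays of the same slide row. For them the block therefore stands for no single column, and an effect of slide column was not tested cleanly. From all spots 29 of 189 miRNAs passed limma's threshold. Also of 189, 13 passed with no scaling (which moved the median of all to -0.46), 3 with a floor of 0.03, 6 with normexp and 8 corrected with no scaling. Other settings tested other numbers of miRNAs. With no filter 5 of 566 passed, and with probes well above background on all arrays 16 of 158. In the middle rows 8 of 177 passed, and in the corrected middle rows 6 of 177. Leaving out single mice gave 8 to 33, and 0 to 21 corrected, with 0 without mouse 2 and without mouse 6 (limma gave 42 and 34 an unadjusted p under 0.05).

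The call of miR-24-2* was lost with no filter (-1.09), a floor of 0.03 (-0.15), normexp (-0.046), the middle rows (-0.98) and the corrected middle rows (-1.04), and without single mice it lay between -1.72 and -1.01. That of miR-24-1* was lost with all probes or no filter (-0.32), a floor of 0.03 (-0.063), first arrays (-0.60), the spot median (-0.53), middle rows or correction (-0.30), both (-0.13) and correction with no scaling (-0.80), turned with normexp (0.13; its probe A_54_P4207 too), and lay between -0.71 and -0.15 without single mice. A higher floor and the normexp offset compress dim signals by construction; otherwise the cause was not tested.

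miR-27a passed with the spot median (-0.90, limma adjusted p = 0.0202) and lay between -0.58 and 0.0034 without single mice. Signs turned for miR-23a with no scaling (-0.34; corrected -0.32), for miR-23b with the brightest probe (0.10), middle rows (0.038), correction (0.032) and both (0.12), for miR-27b with no scaling (-0.089; corrected -0.61), the brightest probe (-0.016) and correction (-0.11), for its probe A_54_P1010 corrected with no scaling (-0.46), and for miR-24 with quantile normalisation (0.024) and second arrays (0.14). Without single mice these lay at 0.012 to 0.26, -0.21 to 0.081, -0.28 to 0.57, -0.14 to 0.87 and -0.36 to 0.072.

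Within mice, miR-27a minus miR-27b was -0.40 with the brightest probe, -0.52 with total signals, -0.92 and -0.69 with first and second arrays, -1.38 with the spot median, -0.049 corrected and -0.39 in corrected middle rows (single mice out, -0.86 to 0.0037). miR-23a minus miR-23b was -0.067 with the brightest probe and 0.056 in corrected middle rows. miR-24-2* minus miR-24-1* was -1.52 and -0.088 with floors of 0.001 and 0.03, and -0.17 with normexp. miR-24-1* minus miR-24 was -0.28 with all probes or no filter, -0.026 with a floor of 0.03, 0.17 with normexp, 0.11 in middle rows, -0.050 corrected and 0.14 with both (single mice out, -0.79 to 0.032). miR-24-2* minus miR-24 was -1.06 with all probes or no filter, -2.13 and -0.11 with floors of 0.001 and 0.03, -0.0031 with normexp, -0.57 in middle rows, -0.88 corrected, -0.65 also unscaled and -0.77 in corrected middle rows (single mice out, -1.63 to -0.76).

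The passenger strands lay near background, which limits their folds. The planned normexp on mean signals was not run, since the files used here hold median signals.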
